A study of Mus musculus with 4 samples.

Results

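Molecular chaperones fold new proteins, hold unstable ones and hand damaged ones to degradation. The genes described here are 40 chaperone and unfolded protein response genes, picked by symbol from the 32285 genes of the files. They were divided by where their products work: 21 cytosolic and mitochondrial members and 19 members of the endoplasmic reticulum (ER) and its stress response. Levels came from 4 single-cell RNA libraries of mouse bone marrow cells sorted as LSK (Lin-Sca-1+Kit+, a gate for stem cells and early progenitors), with 5 mice of 8 to 12 weeks pooled for each. Control cells carried Vav1-iCre/+ and no mutant allele. Ikk2CA cells carried Vav1-iCre/+ and Ikk2-CA flox/+, which encodes a kinase locked in its active state (Ikk2 S177E, S181E) that turns on NF-κB signalling. Jak2V617F cells carried Vav1-iCre/+ and Jak2 V617F flox/+, the activated kinase of myeloproliferative disease, and double-mutant cells carried both alleles with Vav1-iCre/+. The Vav1 promoter drives the recombinase in blood cells generally, so that every blood lineage, not stem cells alone, could carry the mutant alleles. An NF-κB responsive EGFP reporter was bred into the line.

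The cytosolic arm is driven by heat shock factor 1, encoded by Hsf1. It controls Hsp70 and Hsp90 chaperones, their J-domain partners and the TRiC chaperonin ring that folds actin and tubulin. In the ER, unfolded protein is sensed by IRE1, PERK and ATF6. IRE1 splices the mRNA of Xbp1 into the form that encodes an active transcription factor, ATF6 is itself released as one, and PERK acts through ATF4 and its target Ddit3 (CHOP). XBP1 and ATF6 raise ER chaperones and the degradation machinery, and plasma cells, which secrete antibody, depend on XBP1.

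Promoter letters are shown because the 2 arms are known to use different DNA elements. RefSeq windows of GRCm38.p6, from 250 bases before to 50 after the start site, were matched by symbol for 32 of the 40 members, 16 in each compartment. The ER stress response element, CCAAT and CCACG with any 9 bases between them, on either strand, stood in windows of 5 of 16 ER genes (Creld2, Dnajc3, Hsp90b1, Hspa5 and Pdia6) and in 0 of 16 cytosolic ones, against 0.137% of all 27025 genes with a window. Its shorter relative, ATTGG and CCACG with any 1 base between them, on either strand, stood in Herpud1 and Dnajb11 and in 0.0444% of all genes with a window. The letters TGACGTGG, searched on both strands, were found in 0 members and in 0.714% of all genes with a window. Below are the 250 bases before the RefSeq start of 4 ER genes, 5′ to 3′ on the strand of the gene, with the matches in capitals (a match on the opposite strand starts with CGTGG and ends with ATTGG).
Hspa5: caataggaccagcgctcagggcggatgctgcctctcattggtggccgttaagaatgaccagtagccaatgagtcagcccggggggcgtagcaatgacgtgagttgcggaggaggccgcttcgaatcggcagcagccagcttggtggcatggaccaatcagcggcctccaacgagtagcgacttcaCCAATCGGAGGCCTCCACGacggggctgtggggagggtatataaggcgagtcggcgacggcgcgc
Hsp90b1: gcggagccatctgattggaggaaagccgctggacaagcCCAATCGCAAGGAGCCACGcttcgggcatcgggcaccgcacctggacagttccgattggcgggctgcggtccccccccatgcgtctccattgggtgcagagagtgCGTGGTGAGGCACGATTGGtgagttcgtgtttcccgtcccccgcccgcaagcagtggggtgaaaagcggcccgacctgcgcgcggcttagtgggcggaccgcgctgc
Creld2: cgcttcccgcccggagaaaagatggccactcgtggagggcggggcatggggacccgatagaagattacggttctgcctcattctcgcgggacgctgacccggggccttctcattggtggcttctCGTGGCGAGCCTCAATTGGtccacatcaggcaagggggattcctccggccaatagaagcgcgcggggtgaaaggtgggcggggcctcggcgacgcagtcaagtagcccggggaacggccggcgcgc
Herpud1: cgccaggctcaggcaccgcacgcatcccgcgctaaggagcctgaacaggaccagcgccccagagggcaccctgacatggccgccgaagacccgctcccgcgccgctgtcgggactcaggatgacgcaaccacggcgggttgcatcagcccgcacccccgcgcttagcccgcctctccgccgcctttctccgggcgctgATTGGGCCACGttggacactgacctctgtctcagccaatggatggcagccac

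These stretches lie at chr2:34771840-34772089 (plus strand), chr10:86705445-86705694 (minus strand), chr15:88819396-88819645 (plus strand) and chr8:94386179-94386428 (plus strand). With the start base as 0, the match of Hspa5 lay at -65 to -47, those of Hsp90b1 at -212 to -194 and -107 to -89, that of Creld2 at -126 to -108 and that of Herpud1 at -52 to -42. A kappaB consensus, the binding motif of NF-κB, was matched in the windows of Creld2 and Edem1 and in 5.14% of all genes with a window. In the cytosolic arm, the heat shock element, GAA, TTC and GAA with any 2 bases between neighbours, searched on both strands, stood in windows of 4 of 16 genes (Dnajb6, Hspd1, Hspe1 and Hsph1), in 0 of 16 ER genes and in 0.662% of all genes with a window. Its first part alone, GAANNTTC, stood in 10 of 16 cytosolic genes, 0 of 16 ER genes and 9.04% of all genes with a window. Each full match includes these letters, so the searches overlap. The matched sites of 3 of those genes are shown as read on the strand that matches.
Hspe1, forward strand: GAACCTTCCGGAA
Hspe1, reverse strand: GAAGGTTCTAGAA
Dnajb6, forward strand: GAATCTTCCGGAA
Hsph1, reverse strand: GAACTTTCCAGAA

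Hspe1 and Hspd1, which encode the paired chaperonins of mitochondria, are divergent neighbours on chromosome 1, and their windows cover the same 2 overlapping sites. A match is a description of letters and not evidence that a factor binds.

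Kept cells numbered 8055 in control, 9865 in Ikk2CA, 14156 in Jak2V617F and 5268 in the double mutant, with 102362297 to 197836491 unique molecular identifiers (UMIs) per library. Median depth per cell ran from 10606 UMIs in control to 24915 in the double mutant. Levels are UMIs summed over all kept cells of a library, scaled to CPM (UMIs of the gene per 1000000 UMIs of the library). In such sums, fewer cells that express a gene and less RNA per cell cannot be told apart. There was 1 library per genotype, so no test across animals was possible, and the exact 95% intervals cover counting error only. The median gene stood at a log2 CPM ratio to control of −0.23 in Ikk2CA, −0.0044 in Jak2V617F and −0.24 in the double mutant. Fold values below are CPM ratios divided by the ratio of the median gene, and a gene is called past the limit at 1.5-fold. Of the 40 members, 35 reached 10 CPM in either library of each comparison, 17 cytosolic and 18 ER. The pools were unlike in Xist, a marker of female cells, which ran from 0.257 CPM in Jak2V617F to 1176 CPM in control. Between 16 and 64 cell barcodes were shared by each pair of libraries, and leaving their cells out changed no count of members past the limit.

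ER chaperones were higher in Ikk2CA than in control. Of the 18 tested, 8 were at least 1.5-fold higher and 0 lower, where 7.01% of all genes were higher and 6.24% lower. The median member stood at 0.56 (log2), with 17 of 18 above the median gene, whose value is 0 on this scale. Without scaling to the median gene, the count was 6 and the median 0.33.

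Hspa5 (BiP, the Hsp70 of the ER lumen, chr2:34771970-34777547 in mm10) was at 263, 440, 234 and 258 CPM in control, Ikk2CA, Jak2V617F and the double mutant. Its fold in Ikk2CA was 1.96 (1.94 to 1.99). Hsp90b1 (GRP94, the Hsp90 of the ER) was at 302, 431, 291 and 259 CPM in the same order, 1.67-fold in Ikk2CA. In both genes the Ikk2CA library was the only high one and the other three lay close together.

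The disulphide isomerase gene Pdia4 was at 48.6, 79.5, 42.3 and 41.3 CPM in control, Ikk2CA, Jak2V617F and double mutant, 1.92-fold in Ikk2CA. Sdf2l1, whose product works with BiP, was at 75.5, 133, 62.6 and 78.3 CPM, 2.06-fold. Manf, a small secreted ER stress protein, was at 181, 294, 161 and 192 CPM, 1.91-fold. For all 3 genes Ikk2CA was the highest library. Creld2 (chr15:88819646-88826683 in mm10), an ER stress-induced gene, was at 25.6, 53.0, 22.1 and 26.0 CPM. With a fold of 2.43 (2.33 to 2.54), it had the largest ratio to control of any member tested.

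**Figure D1:**
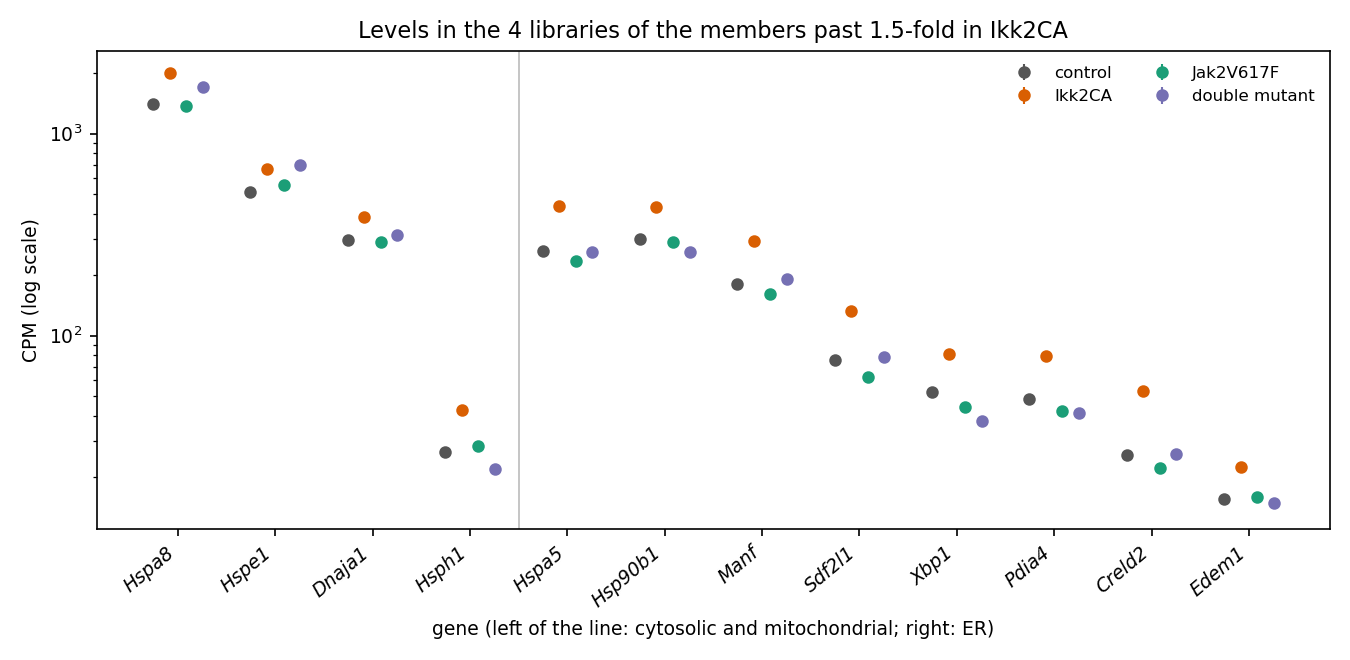
Level of each of the 12 members past 1.5-fold in Ikk2CA, in CPM on a log axis, in the 4 libraries; points are library sums and bars (mostly smaller than the points) exact 95% Poisson intervals. Ikk2CA is the highest of the 4 libraries for all of them except Hspe1, where the double mutant is at 699 CPM against 670 CPM.

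Xbp1 (chr11:5520659-5525893 in mm10) was at 52.9, 80.9, 44.2 and 37.6 CPM in control, Ikk2CA, Jak2V617F and the double mutant, 1.80-fold in Ikk2CA. Counts per gene do not separate its spliced from its unspliced mRNA. Edem1, which sends misfolded glycoproteins to degradation, was at 15.6, 22.4, 16.0 and 14.8 CPM, 1.69-fold. Just under the limit were Herpud1, of the same degradation pathway, at 1.47-fold (63.1 CPM in control, 79.1 CPM in Ikk2CA) and Hyou1, a large ER Hsp70, also at 1.47-fold. None of the transcription factor genes Atf4, Ddit3 and Atf6 was past the limit in Ikk2CA. Atf4 was at 86.7, 91.5, 91.5 and 83.0 CPM in control, Ikk2CA, Jak2V617F and double mutant, a fold of 1.24 in Ikk2CA. Ddit3 was at 16.3, 17, 14.9 and 11 CPM, 1.22-fold, and Atf6 at 15.1, 15.2, 16.7 and 10.4 CPM, 1.18-fold. On plain CPM these 3 genes were within 1.06-fold of control in Ikk2CA. The remaining tested members (Pdia6, Dnajb9, Dnajb11, Dnajc3 and Sel1l) stood between 0.996-fold and 1.46-fold. Trib3, an inhibitory target of ATF4 and CHOP, was under 10 CPM in every library, at 3.37 CPM in control and 1.58 CPM in Ikk2CA.

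Of the 17 cytosolic and mitochondrial members tested, 4 were at least 1.5-fold higher in Ikk2CA (all genes, 7.01%) and 0 lower (6.24%), and the median was 0.15. On plain CPM the median was −0.08 and 1 gene passed, so the direction of the group turned with the scaling. Hspa8 (chr9:40800984-40810087 in mm10), the constitutive Hsp70, was at 1407, 2002, 1367 and 1705 CPM in control, Ikk2CA, Jak2V617F and the double mutant. Its fold in Ikk2CA was 1.67, with both libraries that carry Ikk2-CA above both that do not. Hsph1 (Hsp110, a nucleotide exchange factor of Hsp70) was at 26.4, 43.0, 28.5 and 21.9 CPM, 1.91-fold in Ikk2CA, and high in that library only. Dnaja1, a J-domain partner of Hsp70, was at 299, 386, 290 and 314 CPM, 1.52-fold. Hspe1, the cochaperonin of mitochondria, was at 513, 670, 560 and 699 CPM, 1.53-fold, again with both Ikk2-CA libraries on top. Dnaja1 and Hspe1 lay near the limit and were at 1.492-fold and 1.498-fold in cells under 5% mitochondrial UMIs.

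The 5 chaperonin ring genes measured (Cct2, Cct3, Cct5, Cct8 and Tcp1) were between 1.01-fold and 1.10-fold in Ikk2CA and between 1.21-fold and 1.37-fold in the double mutant. On plain CPM they were between 0.857-fold and 0.937-fold of control in Ikk2CA, so their direction there turned with the scaling. Hsf1 itself was at 23.3, 22.0, 25.8 and 20.7 CPM in control, Ikk2CA, Jak2V617F and double mutant, with a fold to control of 1.05 to 1.11, but of 0.890 to 1.11 on plain CPM. The member with the lowest fold in Ikk2CA was Hspa9, the Hsp70 of mitochondria, at 0.853 (186 CPM in control, 135 CPM in Ikk2CA). Hsp90aa1, Hsp90ab1, Hspd1, Hspa4, Dnajb1 and Dnajb6 lay between these values, none above 1.29-fold.

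**Figure D2:**
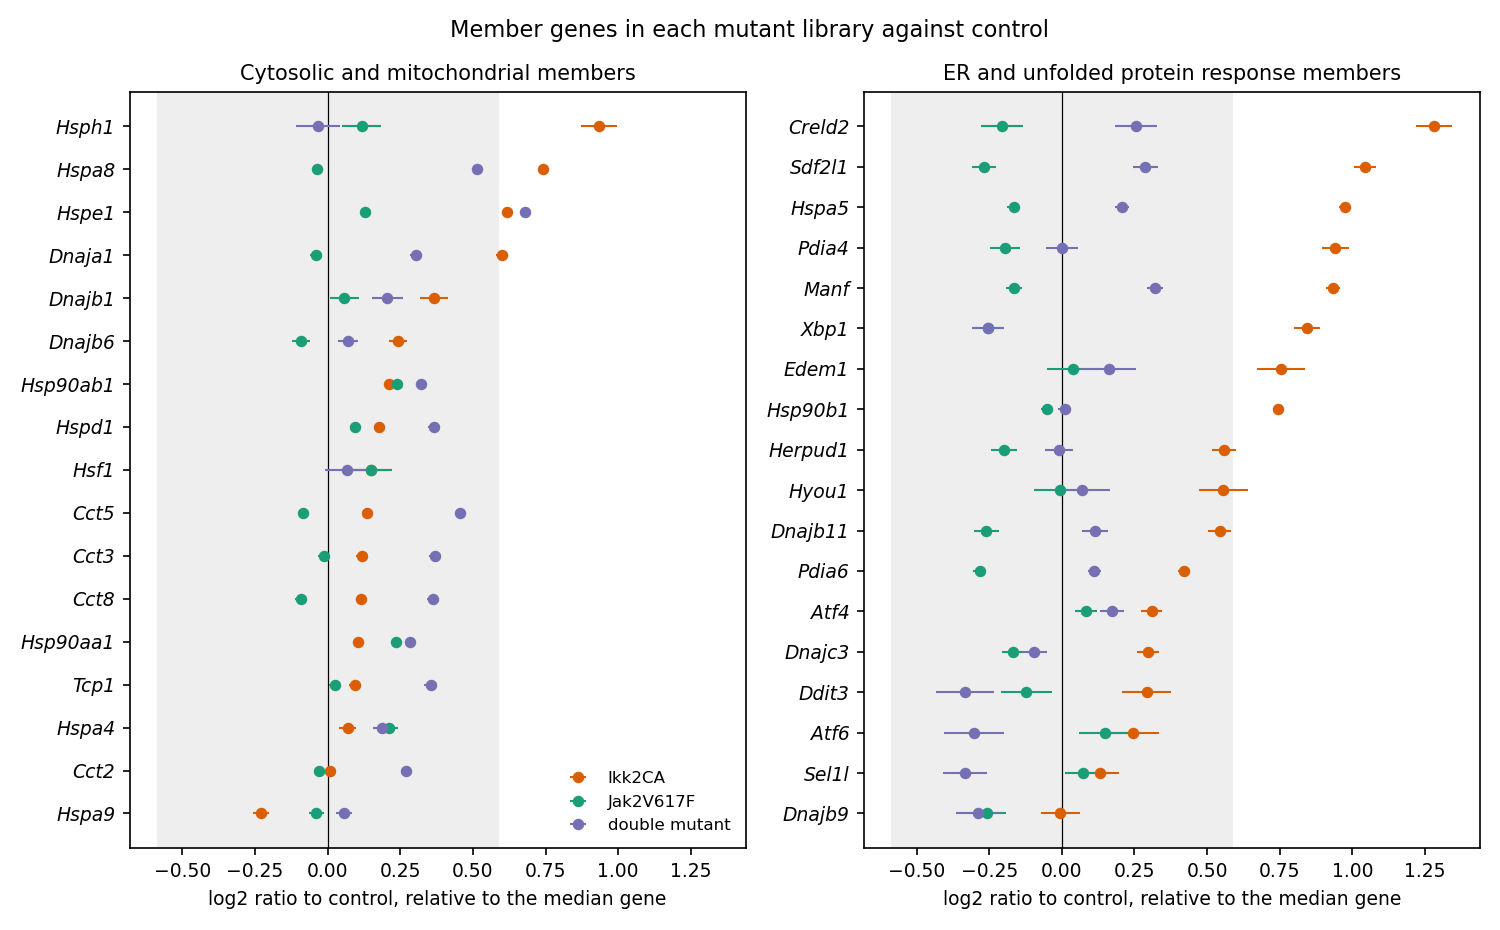
The log2 ratio to control of each member with at least 10 CPM, relative to the median gene, in Ikk2CA, Jak2V617F and the double mutant; bars are exact 95% intervals of counting error and the grey band spans 1.5-fold in either direction. In Ikk2CA 8 of 18 ER members and 4 of 17 cytosolic members lie right of the band, and the single point right of it from another library is Hspe1 in the double mutant.

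The stress-inducible genes Hspa1a, Hspa1b, Hspb1 and Bag3 were low, each under 10 CPM in every library. Hspa1a and Hspa1b, near-identical copies whose reads cannot be assigned with certainty, summed to 1.82, 4.39, 0.416 and 0.830 CPM in control, Ikk2CA, Jak2V617F and the double mutant. Ikk2CA was the highest library and Jak2V617F the lowest, but all were below the 10 CPM needed for a call. The 1% of cells with the most Hspa1a UMIs held 68.7% of them in Ikk2CA and 100% in each of the other libraries. Hspa1a had a UMI in only 0.571%, 2.16%, 0.198% and 0.702% of kept cells in control, Ikk2CA, Jak2V617F and double mutant. Shares of 100% follow where fewer than 1% of cells have a UMI. The small heat shock gene Hspb1 was at 0.113 to 0.430 CPM and the cochaperone gene Bag3 at 3.74 to 6.06 CPM.

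In Jak2V617F, 0 of 17 cytosolic and 0 of 18 ER members were past the limit in either direction, where 1.05% of all genes were higher and 1.36% lower. The ER median was −0.17, with 4 of 18 members above the median gene, and the cytosolic median 0.03. The lowest ER ratios were those of Pdia6 (0.822-fold) and Sdf2l1 (0.831-fold). The highest cytosolic ratio was 1.18-fold, that of Hsp90ab1, the constitutive cytosolic Hsp90, at 2942 CPM in control and 3459 CPM in Jak2V617F.

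Against control, the double mutant had 1 of 17 cytosolic members past the limit, Hspe1 at 1.60-fold (1.59 to 1.62), and 0 of 18 ER members. Of all genes, 6% were higher and 5.12% lower. The cytosolic median was 0.31, with 16 of 17 members above the median gene, against 0.07 on plain CPM. The ER median was 0.04, or −0.20 on plain CPM. None of the 8 ER members that were past the limit in Ikk2CA was past it in the double mutant, which carries the same Ikk2-CA allele.

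Set against Ikk2CA directly, the double mutant had 10 of 18 ER members at least 1.5-fold lower and 0 higher, where 4.31% of all genes were lower and 1.54% higher. The median was −0.61 and all 18 lay below the median gene. Xbp1 had a fold of 0.458 (0.444 to 0.472), Creld2 of 0.482, Pdia4 of 0.511 and Hspa5 of 0.577. The other six were Sdf2l1 (0.581), Hsp90b1 (0.590), Ddit3 (0.636), Manf (0.642), Edem1 (0.651) and Herpud1 (0.663). Hyou1 (0.700) and Atf6 (0.672) lay just outside the limit. Among cytosolic members Hsph1 was the only one past it, at 0.502-fold, and the median was 0.09. Set against Jak2V617F, 0 of 17 cytosolic and 0 of 18 ER members were past the limit, where 3.94% of all genes were higher and 3.75% lower. The medians were 0.26 and 0.09, or 0.04 and −0.12 on plain CPM, so the direction of the ER members turned with the scaling. These comparisons share libraries with those above and are not independent of them.

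If the alleles acted additively on the log2 scale, the double mutant would equal the sum of both single-mutant differences from control. The departure from that sum, relative to the median gene, was below 0 for 18 of 18 ER members, with a median of −0.52. Of these 18, 7 were past the 1.5-fold limit in the negative direction, where 4.6% of all genes were. The lowest ER members were Xbp1 at −0.87, Creld2 at −0.84, Pdia4 at −0.77 and Atf6 at −0.72. The cytosolic member Hsph1, at −1.11, was the lowest of all members tested. The cytosolic median was −0.09, and the highest values were those of Cct5 (0.38) and Cct8 (0.31). No error across animals can be given for a departure built on 4 single libraries. All departures include the cells high in Jchain described below, and they were not computed without these cells. In Ikk2CA, Xbp1 was at 80.9 CPM with those cells and at 59.9 CPM without them.

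Antibody-secreting cells are rich in ER, and cells high in Jchain, one of their markers, were unequal in number between the libraries. Cells with 50 or more UMIs of Jchain, the immunoglobulin joining chain, numbered 20 in control, 205 in Ikk2CA, 10 in Jak2V617F and 2 in the double mutant. They were 0.248%, 2.08%, 0.0706% and 0.0380% of kept cells. Besides Jchain, which defined these cells, the other 7 plasma cell markers listed had at least 1 UMI in them in each library, Prdm1 exactly 1 in the double mutant. A UMI in the sum over these cells is a low bar and does not identify each of them as a plasma cell. By the marker gates described below, 39 of the 205 cells in Ikk2CA were plasmacytoid dendritic-like and 20 were B cell-like. Most of the 205 fell in no gate: ungated Ikk2CA cells numbered 2685 with the Jchain-high cells and 2553 without them. The plasma cell list was not used as a gate. In Ikk2CA the summed ER members stood at 6958 CPM in these cells and 2130 CPM in the others, and in control at 5255 and 1620 CPM. Cytosolic members went the other way, at 2431 against 9487 CPM in Ikk2CA and 1364 against 8795 CPM in control. CPM is a share of all UMIs, and Igkc, an antibody light chain gene, alone stood at 395746 CPM in those Ikk2CA cells.

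Single ER members differed in how far they leaned on these cells. In Ikk2CA, Sel1l, an adaptor of the ER degradation complex, was at 257 CPM in Jchain-high cells and 19.2 CPM in others, and Xbp1 at 749 and 59.9 CPM. Edem1 was at 163 and 17.9 CPM and Herpud1 at 496 and 66.0 CPM. Atf4 was alike in both, at 94.1 and 91.4 CPM. Those 205 cells held 29.6% of all Sel1l UMIs of the library, 28.3% of Xbp1, 22.3% of Edem1, 19.1% of Herpud1, 18.7% of Pdia4 and 17.9% of Creld2, but 5.43% of Hspa5. They also held 37 of the 85 UMIs of Hspb1.

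**Figure D3:**
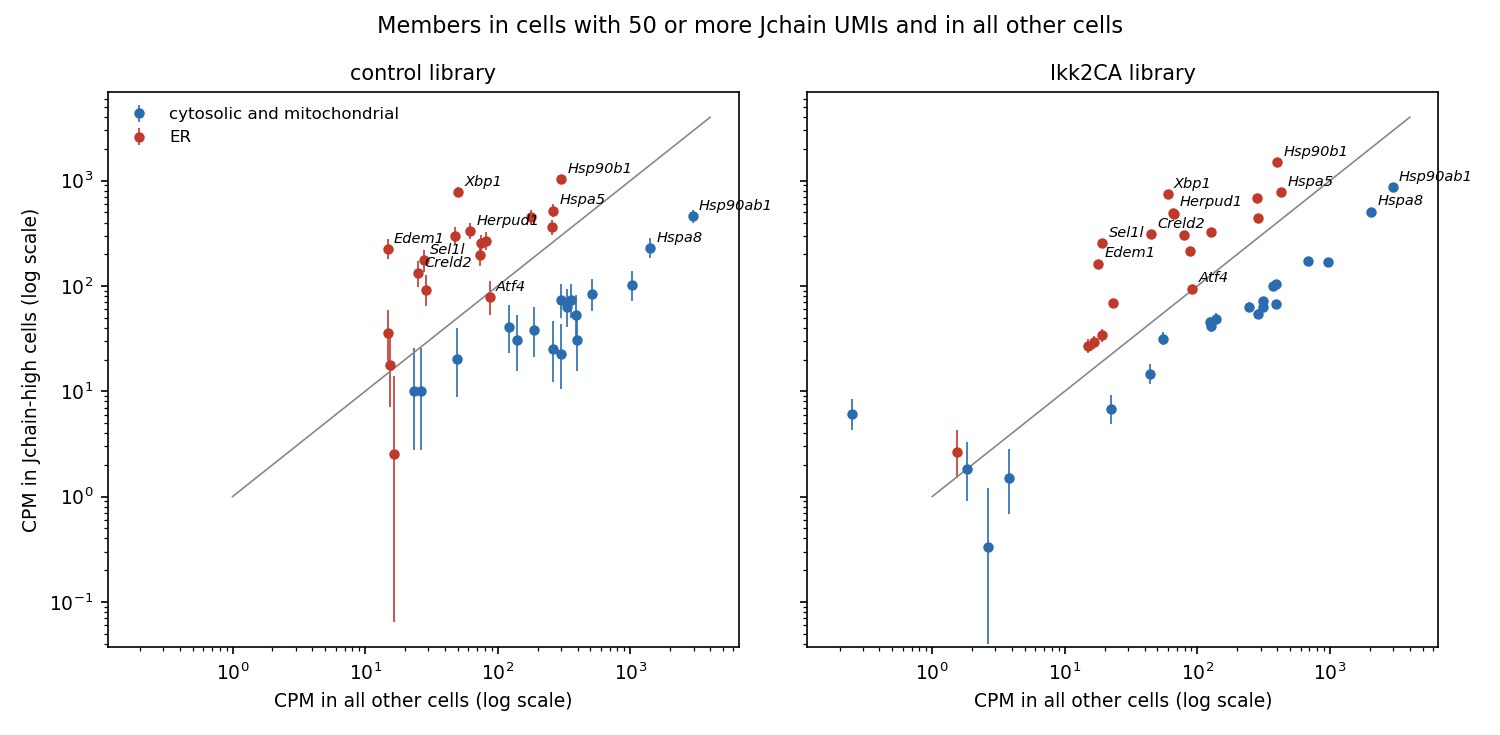
Level of each member with UMIs in both kinds of cell, in CPM on log axes, in Jchain-high cells (vertical) against all other cells (horizontal) of the control and Ikk2CA libraries; bars are exact 95% Poisson intervals and the line marks equal levels. ER members lie on or above the line, except Ddit3 and Atf4 in control, and cytosolic members below it, except Hspb1 in Ikk2CA and Hspa1a, which is near it.

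Without Jchain-high cells, 6 of 18 ER members remained at least 1.5-fold higher in Ikk2CA than in control, with a median of 0.47 (all genes, 6.95%). Creld2 was then at 2.06-fold, Sdf2l1 at 1.95, Hspa5 at 1.89, Manf at 1.81, Pdia4 at 1.62 and Hsp90b1 at 1.54. Xbp1, at 1.38-fold, and Edem1, at 1.40-fold, did not reach the limit. The 4 cytosolic genes were past it with or without these cells. In the double mutant against Ikk2CA, 7 ER members were then lower, with a median of −0.49 (all genes, 4.18%), and Manf (0.680), Herpud1 (0.803) and Edem1 (0.810) were no longer past the limit. With B cell-like and plasmacytoid dendritic-like cells also left out, an alternative chosen after seeing the data, 5 ER members were higher in Ikk2CA than in control (all genes, 5.97%), and 5 lower in the double mutant than in Ikk2CA (3.19%).

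Cells were also gated by marker genes after thinning to 5000 UMIs. A gate needed 3 or more distinct markers of one list and more than of any other. Composition differed between the libraries: stem cell-like cells were 22.4% of thinned control cells and 7.90% of Ikk2CA cells, and B cell-like cells 1.66% and 13.2%. In Ikk2CA the ER median was above that of control in each of the 8 named gates compared, from 0.08 in monocyte-like to 1.21 in plasmacytoid dendritic-like cells. In the latter, 14 of 18 members were past the limit, where 19.4% of all genes were. This gate held 50 control cells, 34 of them at the minimum of 3 markers, and its median was 1.19 without Jchain-high cells. Gated without thinning its median was 0.13. The 30 control cells gated that way had Jchain at 23763 CPM, against 2547 CPM in the 50 gated with thinning.

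In stem cell-like cells 4 of 17 ER members were at least 1.5-fold higher in Ikk2CA (all genes, 5.08%), with a median of 0.30. Megakaryocyte-like cells had 7 of 18 (6.14%) and lymphoid-primed-like cells 4 of 18 (6.17%), with medians of 0.34 and 0.37. B cell-like cells had 6 of 18 (7.1%) and erythroid-like cells 5 of 18 (8.1%). The B cell-like median was 0.44, and 0.31 without Jchain-high cells. Granulocyte-monocyte-like cells had 0 of 18 (4.6%) and monocyte-like cells 1 of 18 (8.71%), and these gates also had the highest summed ER level in control, 2530 and 2542 CPM, against 1285 CPM in stem cell-like cells. The median of granulocyte-monocyte-like cells was 0.15, and −0.02 when gated without thinning.

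Single genes were followed across the same 8 gates. Hspa5 was above control in all 8, from 1.27-fold in monocyte-like to 2.17-fold in plasmacytoid dendritic-like cells, and Hspa8 in all 8, from 1.38-fold to 1.99-fold. Creld2 was past 1.5-fold in 7 of 8 gates and lowest, at 1.44-fold, in granulocyte-monocyte-like cells. Hsph1 was past it in 6, but stood at 1.05-fold in erythroid-like cells. Cytosolic medians ran from −0.19 in erythroid-like to 0.23 in plasmacytoid dendritic-like cells, above 0 in 6 gates and below in 2.

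**Figure D4:**
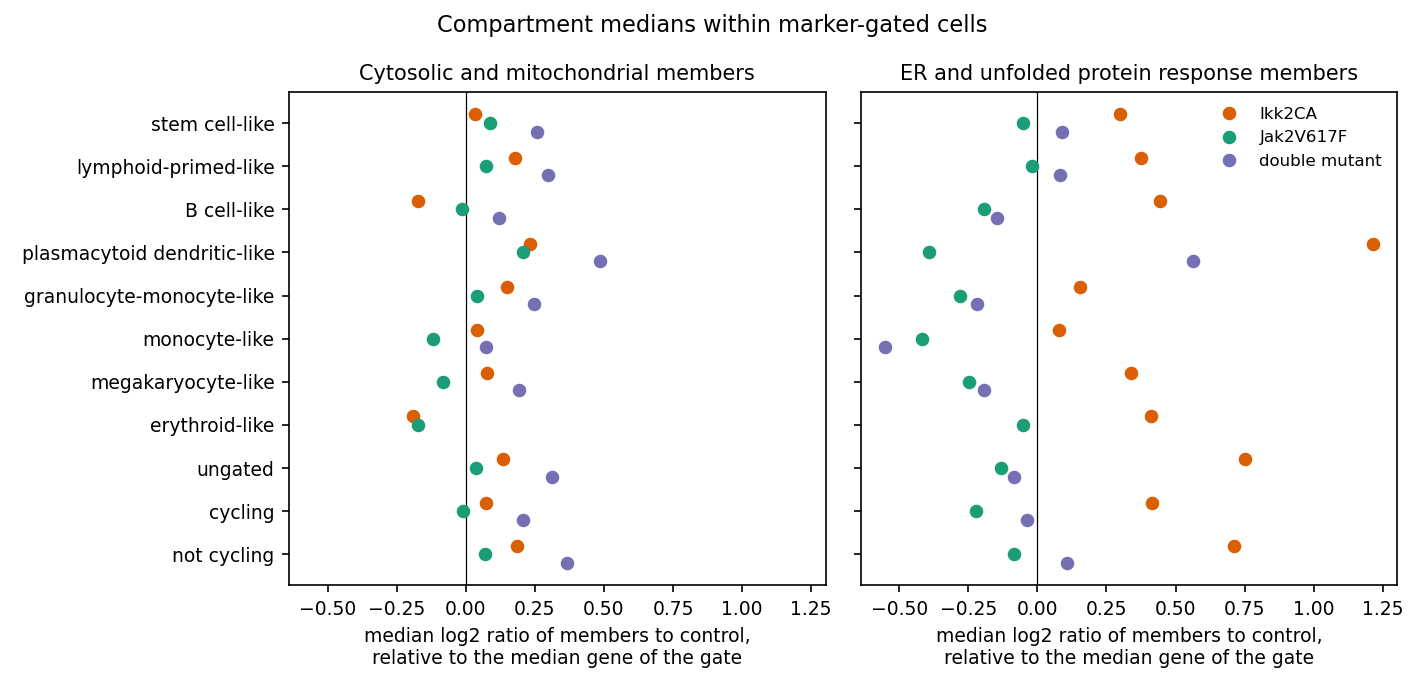
Median log2 ratio to control of the cytosolic (left) and ER (right) members within marker-gated cells, relative to the median gene of each gate, for the 3 mutant libraries; 1 point is 1 gate in 1 library, and gates under 20 cells in either library are not shown. The neutrophil-like gate, compared only for Jak2V617F, is not shown either. ER medians of Ikk2CA lie right of 0 in all gates shown, and those of Jak2V617F left of 0. In plasmacytoid dendritic-like cells the Jak2V617F ER median was −0.39, and 0.070 without Jchain-high cells.

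The lower ER level of the double mutant against Ikk2CA was also seen within gates, with medians below 0 in all 7 named gates compared. In stem cell-like cells the median was −0.25 and 0 of 18 members were past the limit, where 3.15% of all genes were lower. Plasmacytoid dendritic-like cells had 12 of 18 members lower (16.1%) and B cell-like cells 8 of 18 (7.62%), with 33 and 49 cells in the double mutant. The medians of these gates were −0.71 and −0.55, and −1.02 and −0.42 without Jchain-high cells. Monocyte-like cells had 10 of 17 members lower (7.65%), megakaryocyte-like cells 8 of 18 (3.4%), lymphoid-primed-like cells 4 of 18 (3.28%) and granulocyte-monocyte-like cells 4 of 18 (2.3%). The monocyte-like median was −0.69, and −0.28 when gated without thinning. Against control, the double mutant had 7 of 18 ER members at least 1.5-fold lower in monocyte-like cells (15.7% of all genes) among 74 and 59 cells, with a median of −0.55, and −0.070 when gated without thinning.

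Cycling cells, called from 3 or more cycling markers, had an ER median of 0.41 in Ikk2CA, and other cells 0.71, or 0.44 without Jchain-high cells. At an equal depth of 5000 UMIs, Hspa5 was detected in 60.9% of control cells, 76.4% of Ikk2CA, 58.7% of Jak2V617F and 61.1% of double-mutant cells. Unthinned, the shares were 78.4%, 93.1%, 77.6% and 92.9%, with the deeper double mutant close to Ikk2CA. Sdf2l1 was detected in 20.4%, 35.9%, 19.4% and 23.5% of thinned cells (36.2%, 64.6%, 37.1% and 60.8% unthinned). These housekeeping chaperones have no cell type here that should lack them, so no background share is given.

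Immediate early genes, which respond within minutes to stimuli and to tissue handling, differed between the libraries too. The 13 listed summed to 886, 2394, 1345 and 745 CPM in control, Ikk2CA, Jak2V617F and the double mutant. A UMI of Fos, Fosb or Egr1 was found in 33.6%, 72.2%, 59.6% and 32.8% of thinned cells. Cytosolic members were lower in cells with such a UMI than in cells without, at 8329 against 8994 CPM in control and 8996 against 10021 CPM in Ikk2CA. In cells without one, 9 ER and 4 cytosolic members were at least 1.5-fold higher in Ikk2CA than in control, with medians of 0.58 and 0.21 (all genes, 8.54%). In cells without an Xist UMI, 9 ER members were higher, with a median of 0.55 (all genes, 7.04%). ER members were lower in cells with 5% to 10% mitochondrial UMIs than under 5%, at 1440 against 1671 CPM in control. Beyond these subsets, the part of handling, sex and cell quality in the differences between genotypes was not tested.

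Of the 33 other ER chaperone, translocation and degradation genes tested, 7 were at least 1.5-fold higher in Ikk2CA (all genes, 7.01%) and 0 lower (6.24%). Mzb1, an ER cochaperone of antibody-secreting cells, was at 158 CPM against 21.4 CPM in control, 8.66-fold, and Jchain-high cells held 39.3% of its UMIs. The translocon subunits Sec61g (2.18-fold) and Sec61b (1.72), the degradation genes Selenos (1.77) and Syvn1 (1.75), Fkbp2 (1.66) and Txndc5 (1.62) followed. The counts and folds of this list include the Jchain-high cells and were not computed without them. In the double mutant Sec61g (1.91-fold) and Sec61b (1.61) were higher (2 of 33, against 6% of all genes) and Mzb1 (0.349) lower (1 of 33, against 5.12%).

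Among 31 other cytosolic chaperones, 3 were higher in Ikk2CA (all genes, 7.01%) and 1 lower (6.24%). Ahsa1 (1.69-fold), an Hsp90 activator, Stip1 (1.54), which links Hsp70 to Hsp90, and Chordc1 (1.53) were the higher ones, and Dnajb4 (0.641) the lower. The median gene stood at 0.852 of control in Ikk2CA and 0.849 in the double mutant. Plain CPM ratios to control of all genes in these other lists are smaller than the folds given by that factor. How many would pass the limit on plain CPM was not counted. Of 15 ATF4 targets tested in the double mutant, 7 were higher (all genes, 6%) and 1 lower (5.12%). The serine and one-carbon genes Phgdh (2.07-fold), Mthfd2 (1.80), Shmt2 (1.75) and Psat1 (1.54), with Asns (1.62) and Slc7a5 (1.60), were among them. Nupr1, a stress-induced gene, was at 17.2 CPM against 2.86 CPM in control, and at 15.0 CPM in Jak2V617F. Atf4 itself was at 1.13-fold in the double mutant. In Ikk2CA 3 of 14 targets were higher (all genes, 7.01%), namely Mthfd2 at 2.06-fold, Ppp1r15a at 2.03 and Phgdh at 1.72, and 1 was lower (6.24%), Vldlr at 0.228.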

How the data were processed

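Per the labels, each of the 4 libraries held sorted LSK cells pooled from 5 mice. The deposited values are counts: whole UMIs per gene and barcode, not normalised, per the file headers. Cell Ranger is given as version 3.0.1 in the design text but as 4.0.0 in the file headers. Genome build mm10 and Seurat 4.0.0 are given in the submitters' processing notes. The members and gene lists were chosen with earlier results of these data known.

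Cells were kept with 500 to 7500 genes and under 10% mitochondrial UMIs, as in the design text. UMIs were summed per library and gene and scaled to CPM. A gene was compared where either library reached 10 CPM. Ratios were divided by that of the median gene, and 1.5-fold was the limit. Intervals are exact 95%: Poisson for a level, conditional binomial for a ratio. Cells were gated by markers after thinning to 5000 UMIs, and a gate needed 20 cells in each library. Doublets were kept. Scrublet called 238 of 37344 cells, none in 2 libraries, so it did not work there, and an alternative dropped the top-scoring cells instead. Members past the limit in any of the 5 comparisons, the 4 with the largest ratio to control in each compartment and 5 transcription factors (Hsf1, Xbp1, Atf4, Atf6 and Ddit3) were named with their values, and at most 6 genes of each other list. The ratio code was tested on simulated data. Gene spans are GENCODE vM21 (GRCm38, the assembly of mm10). Software was scanpy 1.11.5, scipy 1.17.1, numpy 2.4.6 and pandas 2.3.3 in Python 3.11.15, and R 4.3.3 with edgeR 4.0.16 and DESeq2 1.42.0 (scaling factors only).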

Additional observations from a re-analysis of the deposited data

How the results depend on the processing

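No paired analysis was possible because each genotype had 1 library. Across the alternatives, 177 of the group medians and counts against control were within their limits and 21 were not. The limits of a median were 2 ranked members of the main result, so genes stood in as replicates and no error across animals is covered. A count was within its limit at up to 1.5 times, and a count of 0 that stayed 0 was within it. Of the other values, 951 were within limits and 62 were not. A further 44 calls of single members fell under 1.5-fold, and 0 calls changed direction. With plain CPM ratios the cytosolic median was −0.084 in Ikk2CA and 0.070 in the double mutant, with 1 and 0 genes past 1.5-fold. The ER median of the double mutant turned from 0.039 to −0.196. Hspa8 (1.42-fold), Hspe1 (1.31), Dnaja1 (1.29), Hsp90b1 (1.43) and Edem1 (1.44) were then under the limit in Ikk2CA. With genes of at least 50 CPM the cytosolic medians were −0.016 in Ikk2CA and 0.14 in the double mutant, with 1 and 0 genes. With no filter on low genes, 7 cytosolic genes passed in Ikk2CA (all higher), 2 in Jak2V617F (both lower) and 4 in the double mutant (2 higher, 2 lower), the cytosolic median of the double mutant was 0.38 and 1 ER gene was lower there. Cytosolic genes past the limit in Ikk2CA numbered 2 in cells under 5% mitochondrial UMIs, 2 with a mean over cells, and 2 when cells were weighted to control cell types (median 0.083). With that weighting 6 ER genes were past the limit in Ikk2CA and the ER median was 0.43. Hsp90b1 and Edem1, each at 1.46-fold, were then under the limit. Past 2-fold were 0 cytosolic and 2 ER genes in Ikk2CA and 0 cytosolic genes in the double mutant. Leaving out Jchain-high, B cell-like and plasmacytoid dendritic-like cells left 5 ER genes in Ikk2CA. The filters test fewer genes or more, and the 2-fold limit is stricter by construction; for the others the cause was not tested. TMM and median-of-ratios factors, all deposited barcodes, the highest doublet scores and shared barcodes left each of these counts within 1.5 times. At the 1.5-fold limit the count of ER genes higher in Ikk2CA ran from 5 to 11 over all alternatives and was 8 under each of those named last. Hspa1a, Hspa1b, Hspb1, Bag3 and Trib3 were under 10 CPM and too low for a call, and folds at equal depth were not tested.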
